A study of Mus musculus with 6 samples.

Results

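Collagens are secreted proteins of 3 chains wound into a triple helix, and the 44 collagen genes described here are those whose symbol is Col, a type number, a and a chain number, among 19938 genes measured in mouse enterospheres. Their probe sets carried 1 gene symbol in the platform annotation, and 1 probe set, that with the highest mean over the 6 arrays, stood for each gene. Enterospheres are spheres of enteric neural progenitors cultured in suspension, here from the gut of newborn (P0) C57BL/6 mice. The T3 group (n = 3) received 100 nM triiodothyronine (T3; the labels write nm), the active thyroid hormone, for 1 day. The control group (n = 3) went through the same culture without the hormone. In both groups circular muscle was digested with collagenase and dispase, the cells grew as spheres with EGF and FGF for 4 and then 5 days, and the spheres stood for 1 day in differentiation medium before some of the dishes received the hormone. That medium contained ascorbic acid 2-phosphate, a stable form of vitamin C, in both groups. Each sample pooled 3 mice and was hybridised to 1 whole-transcript array. The labels do not say that the samples of a group were separate cultures, so p-values measure only the spread from sample to sample, which may be technical.

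The type of a collagen tells how its molecules assemble. Fibrillar collagens form the banded fibres that carry load, with types I and III the main ones of connective tissue. Network collagens form sheets, chiefly type IV, the scaffold of basement membranes. FACIT collagens sit on the surface of fibres and link them to other matrix. Type VI forms beaded filaments next to basement membranes and around cells, from 1 α1, 1 α2 and a further chain that is α3 or, in some tissues, α4, α5 or α6. In the gut wall, mesenchymal cells, muscle and glia surround enteric ganglia with such a matrix. Folding of the helix needs prolyl hydroxylases that use ascorbate, and lysyl hydroxylation and crosslinking stabilise the assembled fibres.

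The 44 genes comprised 11 fibrillar, 9 network, 9 FACIT and 6 beaded-filament genes and 9 of other kinds, the last being 1 anchoring-fibril, 4 transmembrane, 2 multiplexin and 2 unclassed genes. Col21a1 stood on the class list and was not analysed here. Values are log2 signals, and a change is the T3 mean minus the control mean on that scale. A gene is called at an adjusted p (limma, Benjamini-Hochberg over all 19938 genes) under 0.05. The Klf9 and Hr genes, which thyroid hormone is known to induce, rose by 1.86 ± 0.08 and 1.92 ± 0.07 (SE), with adjusted p = 3.42e-05 and 1.28e-05 (limma).

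Control arrays 2 and 3 stood apart from each other. The SD of their difference was 0.204 over collagen genes and 0.243 over all genes, the largest of the 6 pairs within a group. The array medians ran from 6.09 to 6.15, and the number of arrays limits the precision. Sox10, a factor of neural crest progenitors and glia, had a control signal of 11.62 ± 0.04 (SD, n = 3), and Ret, a receptor of enteric progenitors, one of 11.20 ± 0.07 (SD, n = 3). Both stood above the 97th percentile of genes. Of 16 fibroblast and mesenchyme markers, 15 had control signals above the median of all genes. In such bulk samples fewer cells of a type and less RNA per cell cannot be told apart.

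With T3, 3 of 6 type VI genes and 2 of 9 FACIT genes passed the test, in both directions, and no fibrillar or network gene did. Col6a3, Col6a2 and Col12a1 fell, and Col6a6 and Col20a1 rose. These 5 of 44 collagen genes are 11.4%, against 3.1% of all genes called. In the lower direction the counts were 3 of 44 and 0.823% of all genes, and in the higher direction 2 of 44 and 2.28%. The groups of 3 did not overlap for 13 of the 44 genes (29.5%), against 19.5% of all genes. Changes were below 0 for 26 genes (59.1%) and above 0 for 18, against 46.7% and 53.3% of all genes. The median change of the collagen genes was -0.03, against 0.01 for all genes.

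**Figure D1:**
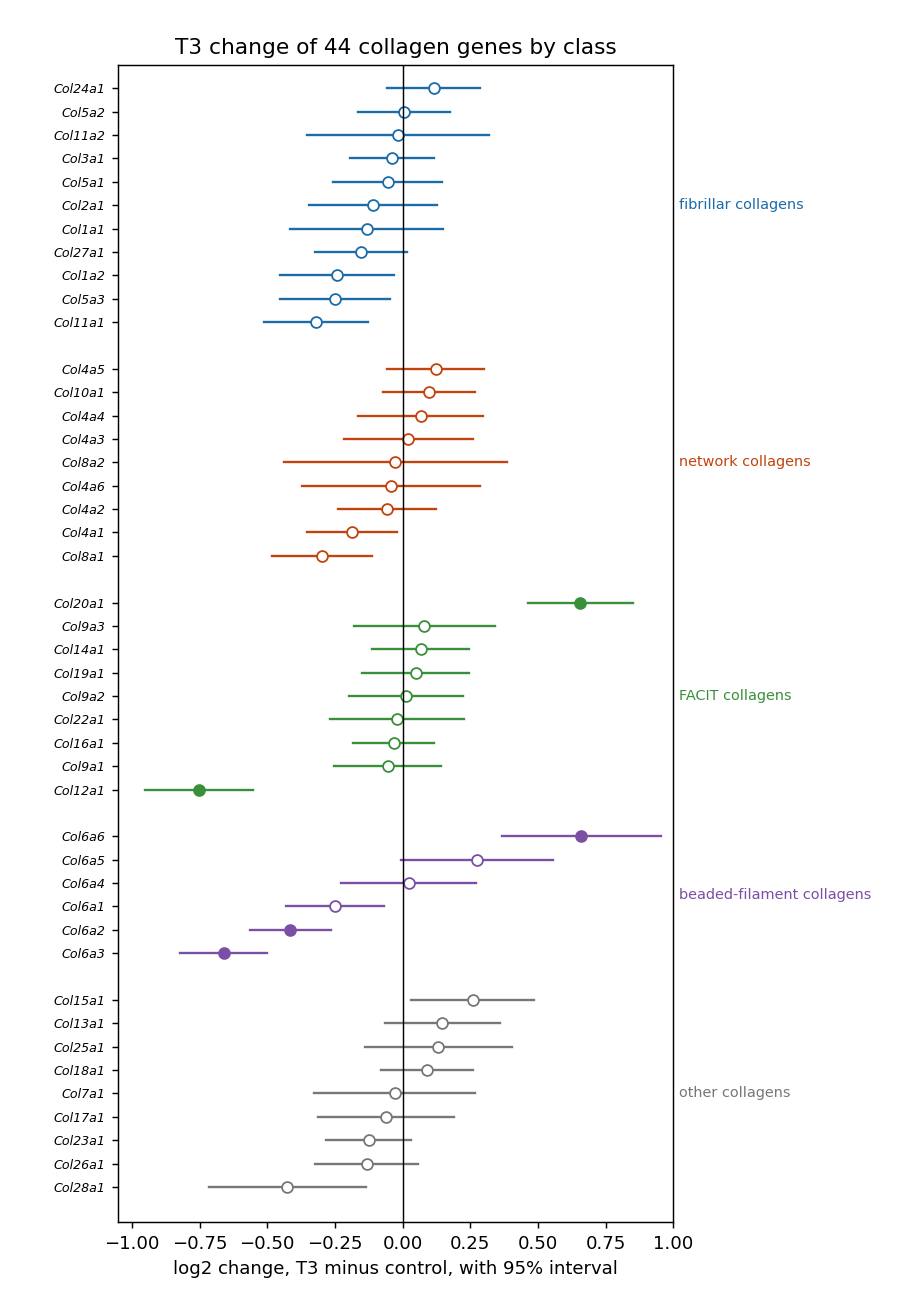
Log2 change, T3 minus control, of the 44 collagen genes by class, with 95% limma intervals as lines. Filled points are the 5 genes with an adjusted p under 0.05 (Col20a1, Col12a1, Col6a6, Col6a2 and Col6a3). All the fibrillar and network points are open.

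The called genes carry the result. No promoter sequence was given for Col12a1, so the stretches before the start sites of the other 4 are printed here. They are the 250 bases 5′ of the listed start, from RefSeq on GRCm38.p6, read on the gene's own strand. Capitals mark matches to AGGTCA, the hexamer that thyroid hormone receptors and other nuclear receptors bind, GGAATG, the core of TEAD factor sites, TATAAA, the TATA box, or CCAAT, the CCAAT box, each on both strands. RefSeq positions are chr1:90843972-90844221 (minus strand) for Col6a3, chr10:76623631-76623880 (minus strand) for Col6a2, chr9:105828086-105828335 (minus strand) for Col6a6 and chr2:180986285-180986534 (plus strand) for Col20a1. For Col6a2, which has 2 listed starts, the outer one is shown.
Col6a3: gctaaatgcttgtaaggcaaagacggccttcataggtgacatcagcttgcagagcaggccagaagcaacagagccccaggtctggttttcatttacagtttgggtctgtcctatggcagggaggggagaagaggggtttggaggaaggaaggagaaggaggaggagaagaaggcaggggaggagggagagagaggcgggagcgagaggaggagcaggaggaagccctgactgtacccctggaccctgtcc
Col6a2: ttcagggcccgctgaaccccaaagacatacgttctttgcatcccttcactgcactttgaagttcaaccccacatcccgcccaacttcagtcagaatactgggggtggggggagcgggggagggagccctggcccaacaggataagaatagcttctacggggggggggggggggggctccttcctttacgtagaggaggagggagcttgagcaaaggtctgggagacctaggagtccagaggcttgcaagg
Col6a6: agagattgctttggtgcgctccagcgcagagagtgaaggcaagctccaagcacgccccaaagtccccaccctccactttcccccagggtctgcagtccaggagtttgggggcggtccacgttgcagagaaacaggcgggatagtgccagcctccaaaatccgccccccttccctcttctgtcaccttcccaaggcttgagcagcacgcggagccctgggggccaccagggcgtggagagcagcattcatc
Col20a1: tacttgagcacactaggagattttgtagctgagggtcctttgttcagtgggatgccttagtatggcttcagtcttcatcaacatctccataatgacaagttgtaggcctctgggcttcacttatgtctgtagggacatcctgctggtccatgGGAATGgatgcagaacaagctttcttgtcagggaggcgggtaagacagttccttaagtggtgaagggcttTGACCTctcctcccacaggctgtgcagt

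The Col6a3 and Col6a6 windows and the outer Col6a2 window held no match to any of the 4 motifs, so their letters are all in lower case. The window of the other listed Col6a2 start, chr10:76623405-76623654, held 1 match to the TEAD core and is among the windows counted with that motif. The Col20a1 window held the TEAD core and, on the opposite strand, the receptor hexamer. Over 32851 promoter windows of the same length, the receptor hexamer stood in 14.02% and the TEAD core in 12.64%. The 35 collagen genes with a window had 38 windows, of which 8 held the receptor hexamer and 4 the TEAD core. The TATA box stood in 5 and the CCAAT box in 13 of these 38 windows, against 12.37% and 33.85% of all windows. A match describes letters in a window and is not evidence of binding.

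Type VI was the class with the most called members, 3 of 6. Col6a3 encodes the α3 chain, the longest of the type VI trimer and the source of the peptide endotrophin. It had signals of 9.82, 9.71 and 9.78 in T3 spheres, against 10.49, 10.43 and 10.38 in control spheres. Every T3 array lay well below every control array. The change was -0.66 ± 0.07 (SE), 0.633 times the control signal, with adjusted p = 0.00271 (limma), and Col6a3 passed in all 15 alternative settings tried.

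Col6a2 encodes the α2 chain. Its signals were 10.38, 10.36 and 10.37 in T3 spheres, against 10.84, 10.77 and 10.75 in control spheres. The T3 values lay within 0.02 of each other and below all control values. The change was -0.42 ± 0.07 (SE), 0.75 times the control signal (adjusted p = 0.0135, limma). The call did not survive the removal of control replicate 1 (adjusted p = 0.0859, limma), nor that of T3 replicate 2 (0.0726) or T3 replicate 3 (0.0657).

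Col6a1, the α1 gene, lies next to Col6a2 on chromosome 10 with no protein-coding gene between them. Its signals were 10.82, 10.60 and 10.64 in T3 spheres, against 10.92, 10.98 and 10.90 in control spheres. The groups did not overlap, yet the change of -0.25 (95% interval -0.43 to -0.07) did not pass, with adjusted p = 0.174 (limma). The 3 genes of the ordinary trimer thus had changes of -0.25, -0.42 and -0.66 for α1, α2 and α3; the differences between these changes were not tested.

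The genes of the alternatives to the α3 chain lie in a row on chromosome 9. Col6a6, the α6 gene, had signals of 8.56, 8.20 and 8.27 in T3 spheres, against 7.74, 7.45 and 7.86 in control spheres. All T3 values were above all control values, with a spread of 0.19 and 0.21 (SD, n = 3 each). The change was 0.66 ± 0.13 (SE), 1.58 times the control signal (adjusted p = 0.0317, limma).

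A second probe set of Col6a6 read 6.93, 6.54 and 6.81 in T3 spheres, against 5.86, 5.71 and 6.12 in control spheres. Its change was 0.86 ± 0.13 (SE), with adjusted p = 0.0140 when each of 21789 probe sets was fitted on its own (limma), so both probe sets gave the same direction. The fit of each probe set was added after seeing the data. The call of the first probe set depended on the setting. Of the 6 fits that left out 1 array, it held in that without control replicate 3 and failed in the other 5 (adjusted p from 0.0532 to 0.118, limma). It also failed after renewed quantile normalization or centring of the arrays, with adjusted p from 0.0554 to 0.0638.

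Col6a5 and Col6a4 follow on the chromosome. Col6a5 had signals of 6.722, 6.495 and 6.392 in T3 spheres, against 6.348, 6.025 and 6.413 in control spheres, and the groups overlapped. Its change of 0.27 (95% interval -0.01 to 0.56) did not pass (adjusted p = 0.38, limma), nor did its second probe set at 0.37 (adjusted p = 0.281, limma). Col6a4 changed by 0.02 (interval -0.23 to 0.27), with control signals below the median of all genes. The 3 genes are similar in sequence, and whether their probes share signal was not tested.

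**Figure D2:**
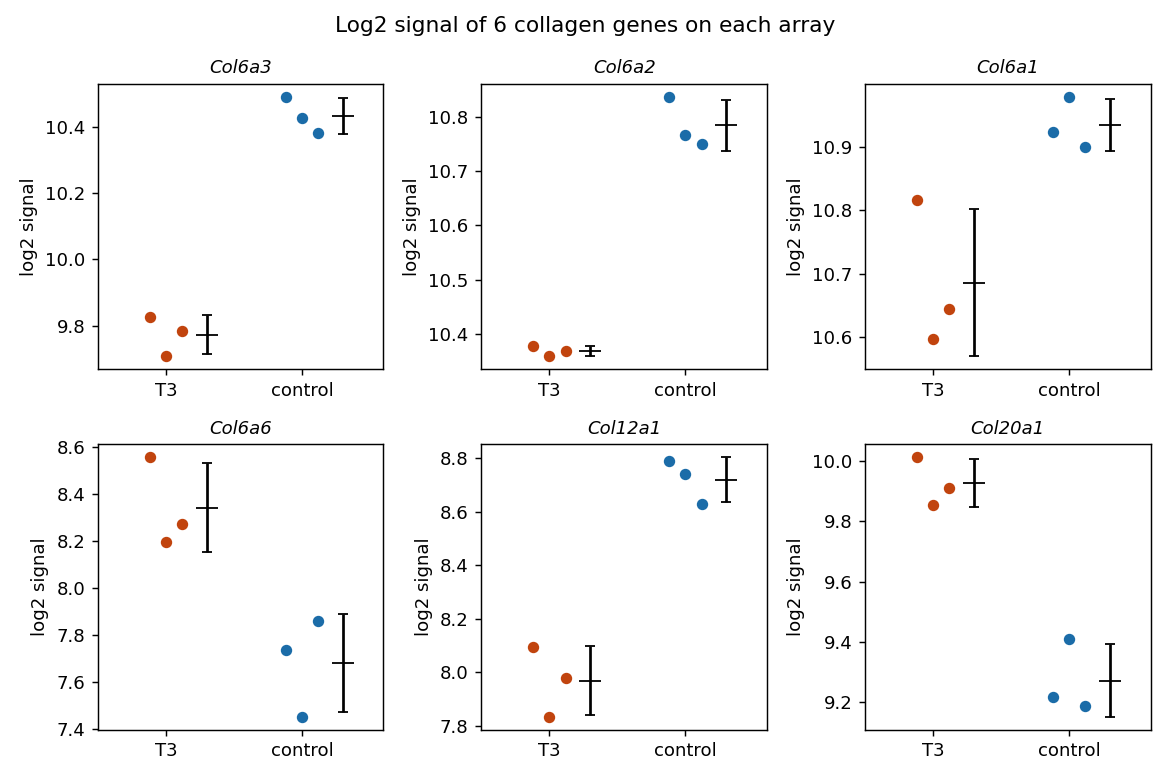
Log2 signal on each array, T3 at the left and control at the right of each panel, with the mean and SD (n = 3) as bars; the y axes differ in range. Col6a3, Col6a2, Col6a1 and Col12a1 are lower and Col6a6 and Col20a1 higher on every T3 array than on any control array, although Col6a1 did not pass the test.

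Among FACIT genes 1 fell, 1 rose and 7 did not pass. Col12a1 encodes type XII, a long protein that coats type I fibres in tendon, muscle sheaths and other tissue under load. Its signals were 8.09, 7.83 and 7.98 in T3 spheres, against 8.79, 8.74 and 8.63 in control spheres. Every T3 array was lower by at least 0.5. The change was -0.75 ± 0.09 (SE), 0.594 times the control signal, the largest fall among the 44 collagen genes (adjusted p = 0.00409, limma), and it passed in all 15 alternative settings.

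Col20a1 encodes type XX, a FACIT collagen first described in the chick embryo. Its signals were 10.01, 9.86 and 9.91 in T3 spheres, against 9.22, 9.41 and 9.19 in control spheres, with no overlap. The change was 0.66 ± 0.08 (SE), 1.58 times the control signal (adjusted p = 0.00631, limma), and it passed in all 15 alternative settings with adjusted p of at most 0.0445.

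Col14a1, type XIV, is the relative of type XII found on fibres of skin and tendon. It had signals of 10.13, 10.15 and 10.22 in T3 spheres, against 10.16, 9.97 and 10.17 in control spheres. The groups overlapped, and the change was 0.07 (interval -0.11 to 0.25, adjusted p = 0.834, limma). Col9a3, a chain of the cartilage collagen type IX, changed by 0.08 (interval -0.18 to 0.34). For the other 5 FACIT genes (Col9a1, Col9a2, Col16a1, Col19a1 and Col22a1) the changes ran from -0.06 to 0.05, and no interval went beyond -0.27 or 0.25. The median of the class was 0.01, the same as that of all genes.

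No fibrillar gene passed, but 9 of 11 had a change below 0, 81.8% against 46.7% of all genes. The median of the class was -0.11. In the alternative settings that kept all 11 genes, 8 to 10 were below 0. Some of these settings altered the test and not the changes, so the count could not move in them. Over all 44 collagen genes the count ran from 21 without control replicate 3 to 33 without control replicate 2. Col1a1, the α1 chain of type I, had signals of 10.95, 11.19 and 11.28 in T3 spheres, against 11.20, 11.10 and 11.51 in control spheres. The groups overlapped and the change was -0.13 (interval -0.41 to 0.15, adjusted p = 0.77, limma).

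Col1a2, its partner in the type I trimer, read 10.13, 10.15 and 10.22 in T3 spheres, against 10.35, 10.28 and 10.59 in control spheres. The groups did not overlap, and the change of -0.24 (interval -0.45 to -0.03) had adjusted p = 0.277 (limma). Control replicate 3 was the highest array for both type I genes.

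The type III and type V genes did not pass either. Col3a1, the type III gene, had signals of 10.26, 10.27 and 10.31 in T3 spheres, against 10.34, 10.25 and 10.37 in control spheres, a change of -0.04 (interval -0.19 to 0.12). Its neighbour Col5a2, a chain of the type V collagen that starts fibres, changed by 0.0038 (interval -0.17 to 0.17), a sign that turned with the scaling. Col5a3, a further type V chain, had signals of 8.01, 8.17 and 8.30 in T3 spheres, against 8.41, 8.34 and 8.48 in control spheres. Its groups did not overlap, but the change of -0.25 did not pass (adjusted p = 0.238, limma).

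The smallest p of the class was that of Col11a1, a chain of type XI, which limits fibre width in cartilage. Its signals were 6.78, 6.73 and 6.71 in T3 spheres, against 7.08, 6.92 and 7.19 in control spheres. The change was -0.32 (interval -0.51 to -0.13) with adjusted p = 0.0958 (limma), and it passed without control replicate 2 at -0.39 (adjusted p = 0.0390, limma). Col27a1, a fibrillar collagen of cartilage, changed by -0.15 (adjusted p = 0.431, limma) with groups that did not overlap. The remaining 4 (Col2a1, Col5a1, Col11a2 and Col24a1) ranged from -0.11 to 0.12.

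Fibrillar genes also varied between control arrays. The median SD over the 3 control arrays was 0.14 for the 11 genes, against 0.10 for all genes. Most other collagen classes shared this, with 0.14 for the other collagens, 0.12 for FACIT and 0.12 for network genes. For beaded-filament genes it was 0.09. Over the T3 arrays the median SD of the fibrillar genes was 0.08, against 0.09 for all genes. Without control replicate 3 the median change of the class was -0.02, and without control replicate 2 it was -0.20.

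**Figure D3:**
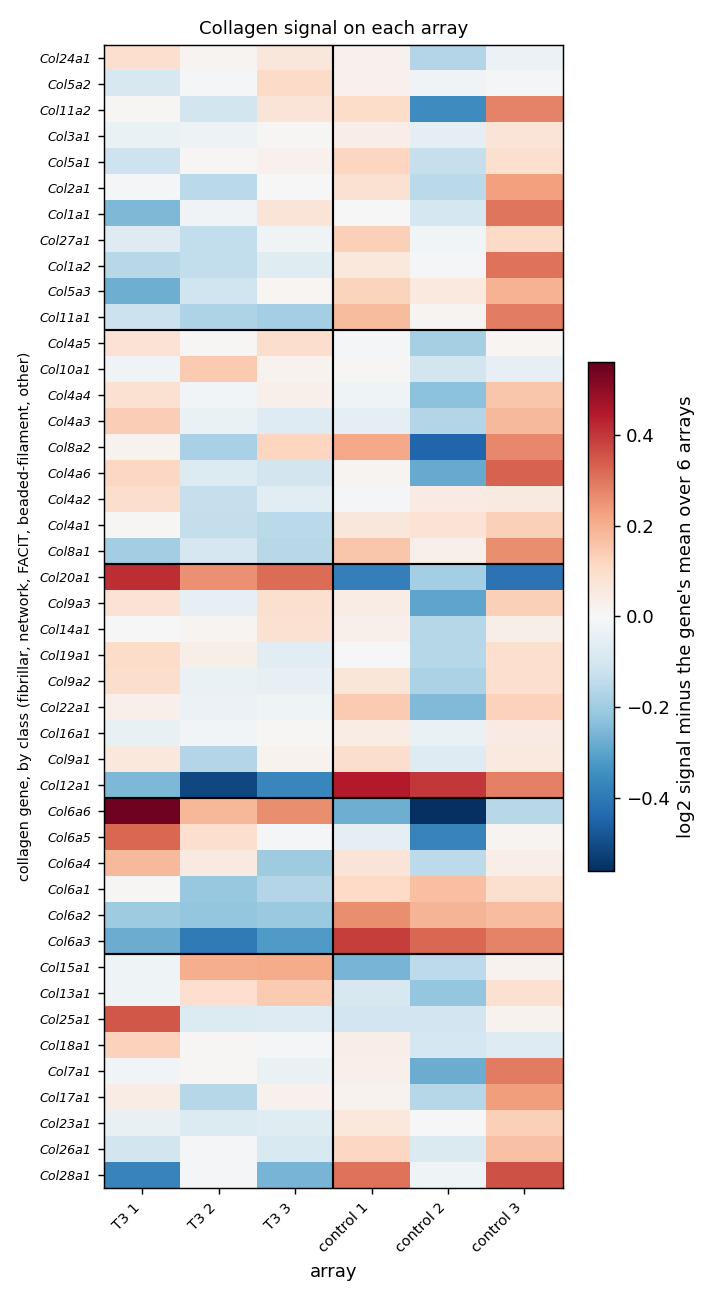
Log2 signal of each collagen gene on each array minus that gene's mean over the 6 arrays, T3 arrays at the left, control arrays at the right, classes separated by lines. Control replicate 3 is high and control replicate 2 low for many genes that did not pass, while Col12a1, Col6a2 and Col6a3 are low and Col20a1 and Col6a6 high on all T3 arrays.

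The network genes did not pass in any of the 9 cases, at a class median of -0.03. The counts at an unadjusted limma p under 0.05 were 2 of 9, against 13.7% of all genes. Col4a1 and Col4a2 encode the α1 and α2 chains found in nearly all basement membranes and lie head to head on chromosome 8. Col4a1 had signals of 9.144, 9.005 and 8.988 in T3 spheres, against 9.203, 9.221 and 9.273 in control spheres. The groups were separate but close, with a change of -0.19 (interval -0.35 to -0.02, adjusted p = 0.291, limma). Col4a2 had signals of 9.60, 9.37 and 9.44 in T3 spheres, against 9.50, 9.55 and 9.55 in control spheres. These overlapped, with a change of -0.06 (interval -0.24 to 0.12).

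The other type IV chains, found in kidney and other specialised membranes, had control signals below the median of all genes. Col4a3 and Col4a4 changed by 0.02 and 0.07, and Col4a5 and Col4a6 by 0.12 and -0.04, with no adjusted p under 0.601 (limma). Col8a1, of the hexagonal type VIII network in vessels and the eye, had signals of 5.60, 5.71 and 5.64 in T3 spheres, against 5.95, 5.83 and 6.06 in control spheres. The groups did not overlap, and the change of -0.30 (interval -0.48 to -0.11) had adjusted p = 0.107 (limma). It passed after renewed quantile normalization (adjusted p = 0.0368, limma). Col10a1, the collagen of growth-plate cartilage, changed by 0.10 and Col8a2 by -0.03.

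None of the 9 other collagen genes passed limma, while 2 of 9 had an unadjusted p under 0.05, against 13.7% of all genes. Non-overlapping groups were found for 1 of 9 (11.1%, against 19.5% of all genes). Col28a1 encodes type XXVIII, a collagen known in mice from the nodes and non-myelinating glia of peripheral nerve. Its signals were 5.48, 5.85 and 5.59 in T3 spheres, against 6.16, 5.83 and 6.21 in control spheres. The groups overlapped at T3 replicate 2 and control replicate 2. The change was -0.43 (interval -0.72 to -0.13) with adjusted p = 0.147 (limma). It passed without control replicate 2 (adjusted p = 0.0492, limma).

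Col15a1 and Col18a1 encode the multiplexins, basement membrane collagens that carry sugar chains and release the peptides restin and endostatin. Col15a1 had signals of 10.01, 10.23 and 10.24 in T3 spheres, against 9.77, 9.88 and 10.05 in control spheres. The groups overlapped slightly, and the change was 0.26 (interval 0.03 to 0.48, adjusted p = 0.279, limma). Col18a1 changed by 0.09 (interval -0.08 to 0.26). Col26a1 and the transmembrane collagen gene Col23a1 both changed by -0.13, with adjusted p of at least 0.506 (limma). The last 4 (Col7a1, the anchoring-fibril gene, and Col13a1, Col17a1 and Col25a1) lay between -0.06 and 0.15.

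Control signals of the collagen genes ran from 5.28 to 11.27, against 2.48 to 13.52 for all genes. Probe sets differ in affinity, so these positions do not order transcripts by abundance. Of the 44 genes, 24 had a control signal above the median of all genes (6.96) and 14 above the 75th percentile. By class these counts were 9 and 5 of 11 fibrillar genes, 2 and 2 of 9 network genes, 5 and 2 of 9 FACIT genes, 4 and 3 of 6 beaded-filament genes and 4 and 2 of 9 others. The probe sets of highest control signal in each class were those of Col1a1 at 11.27, Col4a2 at 9.53, Col14a1 at 10.10, Col6a1 at 10.93 and Col18a1 at 10.96. The 2 network genes above the median were Col4a1 and Col4a2, the ordinary pair of basement membranes. No collagen gene was below the 25th percentile. All 5 called genes had control signals above the median, with the smallest at 7.68 for Col6a6. Whether a dim probe set was above background is not known, and array background compresses the changes of dim genes.

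**Figure D4:**
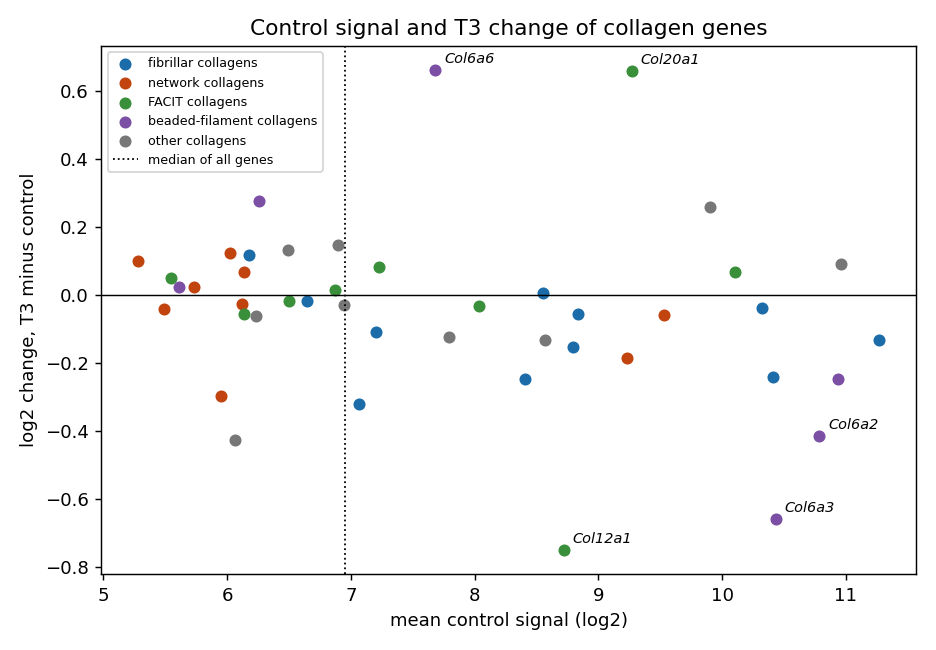
Mean control signal (log2, x axis) and log2 change, T3 minus control (y axis), of each collagen gene, coloured by class. The 5 labelled genes passed the test and all lie right of the dotted line, the median control signal of all genes at 6.96.

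Genes that build, process or bind collagen gave 2 calls. Of 21 measured genes of folding and modifying enzymes, 1 rose, 1 fell and 19 did not pass, with a median change of -0.04 (9.52% called, against 3.1% of all genes). P4ha2, a catalytic subunit of the prolyl hydroxylase that uses ascorbate, had signals of 7.04, 7.15 and 7.30 in T3 spheres, against 6.58, 6.79 and 6.76 in control spheres. It rose by 0.45 ± 0.09 (SE, adjusted p = 0.0380, limma), a call that held in fits without T3 replicate 1 or control replicate 2 and was lost without any of the other 4 arrays (adjusted p from 0.0759 to 0.170).

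Plod3, which hydroxylates lysines and adds the sugars found on them, had signals of 10.80, 10.93 and 11.01 in T3 spheres, against 11.33, 11.22 and 11.38 in control spheres. It fell by 0.39 on the log2 scale (adjusted p = 0.0419, limma), a call kept without control replicate 2 and lost without any of the other 5 arrays (adjusted p up to 0.183) or with the replicate block (adjusted p = 0.0661). Colgalt2, a galactosyltransferase of collagen, changed by 0.29 (adjusted p = 0.107, limma).

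The 12 measured genes of procollagen processing and crosslinking gave no limma call and had a median of 0.02. At an unadjusted p under 0.05 there were 4 of 12, against 13.7% of all genes, and 4 of 12 had non-overlapping groups (33.3%, against 19.5%). Tll2, a protease of the BMP1 family, came closest with a change of -0.43 (adjusted p = 0.0583, limma). It passed in 7 of 14 alternative settings, none of them a fit without 1 array. Loxl1, a crosslinking oxidase, changed by 0.29 (adjusted p = 0.136) and Adamts3, an N-propeptidase, by 0.22 (adjusted p = 0.274), both by limma.

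The 9 measured receptor genes gave no limma call either, with 4 at an unadjusted p under 0.05 (13.7% of all genes), non-overlapping groups for 6 of 9 (66.7%, against 19.5% of all genes) and a median of -0.07. Itga1, the α1 integrin chain that binds type IV collagen, had signals of 9.002, 8.774 and 8.847 in T3 spheres, against 9.198, 9.229 and 9.257 in control spheres. Its change of -0.35 had adjusted p = 0.0549 (limma), and it passed in 6 of 15 alternative settings. Mrc2, the receptor that takes up collagen for breakdown, changed by -0.29 (adjusted p = 0.0605, limma), and Lair1, an inhibitory receptor of leukocytes, by 0.25 (adjusted p = 0.101, limma).

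**Figure D5:**
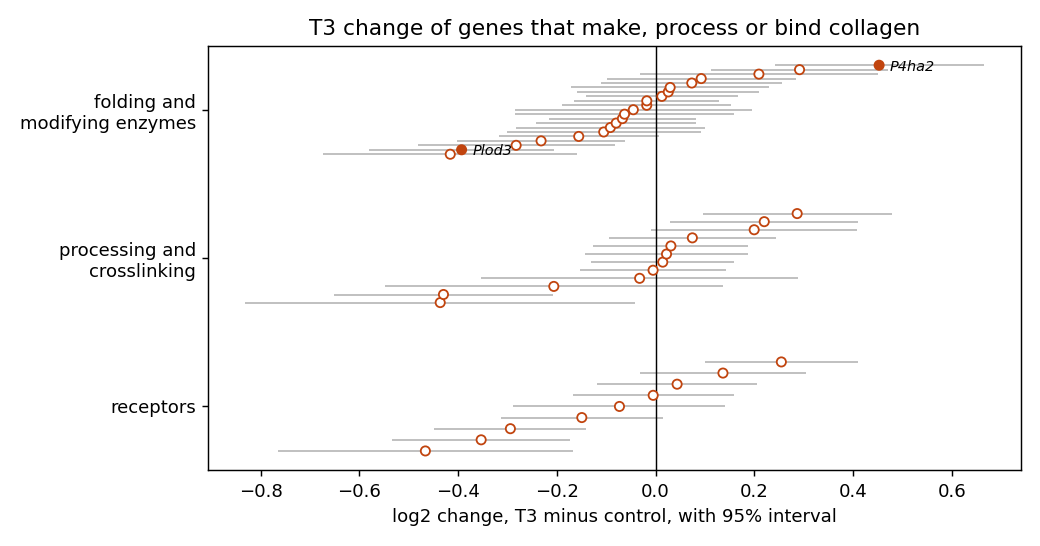
Log2 change, T3 minus control, with 95% limma intervals, of 21 folding and modifying, 12 processing and crosslinking and 9 receptor genes. Filled points passed the test; these are P4ha2, which was higher, and Plod3, which was lower.

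Marker genes of other cell types moved with T3 to different extents. The summed linear signal of the 16 fibroblast and mesenchyme markers was 33822.5 to 34961.5 in T3 spheres and 33656 to 34739.4 in control spheres, ranges that overlap. The bright Vim and Fn1 weigh most in that sum. Changes were above 0 for 7 of the 16 and below 0 for 9, with a median of -0.006. The groups did not overlap for 7 of the 16 (43.8%, against 19.5% of all genes). An unadjusted limma p under 0.05 was found for 5 (13.7% of all genes). Thy1 rose and Twist1 fell among these 16 markers. Whether the Thy1 signal came from mesenchymal or other cells was not tested. For 10 smooth muscle markers the sum was 2587 to 2698 in T3 spheres and 2691 to 2946 in control spheres, a sum in which the bright Acta2 weighs most. Acta2 and Tagln fell and Myh11 and Myocd rose. The changes were above 0 for 7 of the 10, with a median of 0.26, so sum and median differ in direction. For 8 endothelial markers it was 690.2 to 801 in T3 spheres and 851 to 952 in control spheres, with Egfl7, the brightest of them, and Kdr lower. The other 6 of the 8 had changes above 0 that did not pass, and the median was 0.12, again opposite to the sum. For 9 neuron markers the sum was 17434.5 to 18341.4 in T3 spheres and 15900.9 to 17003.9 in control spheres. Prph and Snap25 passed as higher. The brighter Stmn2 and Ret, which weigh more in the sum, changed by 0.25 and 0.26 and did not pass (adjusted p = 0.178 and 0.139, limma). The changes were above 0 for 6 of these 9 and below 0 for 3, with a median of 0.03. For 8 glia markers the ranges of the sum overlapped (14009.5 to 15229.2 and 14106.4 to 15060.6). The shares called were 12.5% of mesenchyme, 40% of smooth muscle, 25% of endothelial and 22.2% of neuron markers, against 3.1% of all genes. No glia, macrophage or mesothelial and epithelial marker passed limma. An unadjusted limma p under 0.05 (13.7% of all genes) was found for 1, 0 and 1 of the 8 markers of these lists. The macrophage sums were 299 to 331 in T3 spheres and 319 to 338 in control spheres, and the mesothelial and epithelial sums 521 to 599 in T3 spheres and 479.6 to 547.5 in control spheres. RMA values have no zero, so no marker can be said to be absent. The part of these markers in the collagen changes was not tested.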

How the data were processed

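Total RNA was measured on Affymetrix Mouse Gene arrays. The deposited values are the authors' log2 signals of 35556 probe sets, made by RMA, with Partek 6.5 also named in the submitters' processing notes. How RMA was set and which genome build underlies the probe sets are not given here. RMA as usually run aligns arrays by quantiles, which hides changes common to most genes. In the platform annotation 21789 probe sets had 1 symbol, 1621 had several and 12146 were not listed. The probe set of highest mean stood for each of 19938 genes; 2 collagen genes had more than 1.

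T3 minus control was fitted with limma 3.58.1 (R 4.3.3), two-sided by lmFit and eBayes with Benjamini-Hochberg adjustment over all genes. SE, intervals and single-gene p come from that fit, SD from the 3 arrays of a group. The procedure was run on simulated data with independent noise for each gene. Deviations shared by many genes of an array were not simulated, so that run does not cover them. No 2 arrays were duplicates: at most 21 genes had identical values.

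The members, gene lists and tests were chosen with earlier results of these data known. Named genes are the called collagens, the 4 of smallest p and the one of highest control signal in each class, neighbouring pairs, the called genes and 3 of smallest p in each related list, and Klf9 and Hr. Other members were given by range or value. Sox10, Ret, Vim, Fn1, Stmn2 and the markers that passed were named outside that rule. The motifs TATAAA and CCAAT were added after seeing the data. Promoter windows come from RefSeq (GRCm38.p6), for 35 of the 44 genes. Protein sequences were not used here. Alternatives tried were a replicate block, renewed quantile normalization, 2 centrings, 2 filters on dim genes, the mean of probe sets, trend with robust fitting, array weights and leaving out each array.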

Additional observations from a re-analysis of the deposited data

How the results depend on the processing

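Of the 5 collagen calls, Col6a3, Col12a1 and Col20a1 passed in all 15 alternative fits, Col6a2 in 12 and Col6a6 in 7. Col6a2 was lost in 3 and Col6a6 in 5 of the 6 fits without 1 array. The number of higher collagen genes was 1 after renewed quantile normalization, 1 with centring on the median and 1 with centring on the 75th percentile, since Col6a6 did not pass there either. With array quality weights 10 collagen genes were lower and 3548 genes were called in all, against 3 and 618; the cause was not tested. Without 1 array, 1 to 2 collagen genes were higher, 2 to 5 lower (the 5 without control replicate 2), and 191 to 640 genes were called in all (191 without control replicate 1); fewer samples enter those fits. The fibrillar median then ran from -0.20 to -0.0233, and that of all collagen genes from -0.12 to 0.04, so its sign is not settled. Without the dimmest 50% of genes the beaded-filament median was -0.33, against -0.11 in the main fit, as 4 of the 6 genes remained in the table.

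Signs of changes near 0 turned. After renewed quantile normalization Col5a2 was -0.0340. With centring on the median Col4a3 was -0.0050, Col5a2 -0.0225 and Col6a4 -0.0043, and with centring on the 75th percentile they were -0.0089, -0.0265 and -0.0082. With array quality weights Col18a1 was -0.0030, Col6a4 -0.0890 and Col9a3 -0.0071. Without 1 array, Col4a3 ran from -0.0556 to 0.12, Col4a4 from -0.0317 to 0.16, Col4a6 from -0.19 to 0.11, Col5a2 from -0.0483 to 0.0503, Col6a4 from -0.0641 to 0.13 and Col9a3 from -0.0472 to 0.17.

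The labels give replicate numbers but no pairing, and same-numbered arrays did not deviate together in all 3 pairs (correlations of deviations 0.179, 0.0171 and 0.000167 across genes). With the replicate block 2 collagen genes were higher and 3 lower, as without it, and 472 genes were called in all. Among the genes named it ended the call of Plod3 and gave one to Tll2 (adjusted p = 0.0409, limma). Signal over background is not recorded, so changes of dim collagen genes may be understated.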
